A study of Mus musculus with 4 samples.

Results

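The genes described here are the enzymes and carriers of glycolysis, of the entry of pyruvate into its next steps and of the pentose phosphate pathway. They were chosen by gene symbol alone, from a list of 33 symbols, and every probe set annotated to one of these symbols was taken. Of the 33 genes, 29 had a probe set of that single symbol, which gave 57 of the 22690 probe sets on the arrays. The annotation used named no probe set for Gpi1, Pfkfb1, Eno1 or G6pdx, so glucose-6-phosphate isomerase, the liver and muscle bifunctional regulator, the general enolase and the first enzyme of the pentose phosphate pathway are not described. A further 3 probe sets, 1 that also lists Hk1 and 2 that also list Gapdh, carry several symbols and were not used. Of the 29 genes, 28 were bright enough to be compared, and Slc16a3 was below the floor on all 4 arrays.

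RNA came from female, nulliparous mice on the C57BL/6 background, either Sca-1 knockouts (KO) or their wild-type (WT) littermates. Sca-1 (stem cell antigen-1) is a surface protein used to mark stem and progenitor cells, and the labels do not say how the allele was made. There were 4 groups with 1 array each: KO mammary tumors, WT mammary tumors, KO mammary glands at 6 weeks of age and WT mammary glands at 6 weeks of age. The tumor groups are labelled as treated with MP-DMBA, that is, 15 mg of the depot progestin MP under the skin followed by 4 weekly gavages with 1 mg of the carcinogen DMBA. The protocol text with this treatment is attached to the gland samples too, but their group labels do not name it, and the age at which tumors were taken is not given. All mice ate standard chow. Each array measured RNA pooled in equal amounts from 5 mice, so no group has a replicate, no test could be made, and each difference below is one between 2 arrays. The number of arrays limits the precision. Sca-1 had no probe set under its own name here, and the deletion was not verified on the arrays.

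The signals are linear intensities that were deposited already scaled. Differences are given on the scale log2(signal + 27.3), with an offset equal to the lower quartile over the 4 arrays, which understates the change of dim genes. A gene is represented by its brightest probe set and was compared if its signal reached 168.1, the median of all values, on at least 1 array, which left 8283 genes. A difference of at least 2-fold is called higher or lower. As a gauge of noise, the spread between the 2 brightest probe sets of a gene was computed over 2766 genes. It is the median absolute difference between the log2 differences of those 2 probe sets, divided by the square root of 2. Many genes exceed it, so it is not a limit of noise. This spread was 0.17 log2 units for KO against WT gland, 0.12 for KO against WT tumor, 0.35 for WT tumor against WT gland and 0.32 for KO tumor against KO gland, and it says nothing of variation among mice or among pools.

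Glycolysis turns glucose into pyruvate in the cytosol and yields ATP and NADH. Pyruvate is then reduced to lactate or enters mitochondria through pyruvate dehydrogenase, while the pentose phosphate pathway branches off early and supplies NADPH and ribose. Several steps are made by sister genes whose products differ between tissues, and skeletal muscle uses its own phosphofructokinase, phosphoglycerate mutase and enolase. The mammary gland holds epithelium within a fat pad that lies close to skin and body-wall muscle.

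The cell makeup of the samples differed strongly between tumors and glands. Of 20 skeletal muscle markers 19 had a probe set, and their summed signal was 1941 in the KO tumor and 1050 in the WT tumor, against 77323 in the KO gland and 80683 in the WT gland. In the tumors 17 and 18 of the 19 were below the floor (KO and WT), in the glands 0, and none was at 0 on any array. Acta1, the actin of skeletal muscle, had signals of 427.5 in the KO tumor and 159.6 in the WT tumor, against 7158.8 in the KO gland and 7121.0 in the WT gland. All 11 measured white adipocyte markers (of 14 listed) were at least 2-fold lower in both tumors than in the gland of the same genotype, with summed signals of 5358 in the KO tumor and 7024 in the WT tumor, against 64119 in the KO gland and 66046 in the WT gland. The 12 measured luminal epithelium markers summed to 55276 in the KO tumor and 50088 in the WT tumor, against 24632 in the KO gland and 30051 in the WT gland, and Krt8, a keratin of luminal cells, had signals of 9811.2 in the KO tumor and 9258.1 in the WT tumor, against 4986.7 in the KO gland and 6398.1 in the WT gland. In pooled tissue, fewer cells of a type and less RNA per cell cannot be told apart. The part of this makeup in the tumor against gland differences that follow was not tested.

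Most of the 28 genes compared stayed within 2-fold between tumor and gland, 17 for the WT arrays and 16 for the KO arrays. The others moved both ways, which was also true of all genes on the arrays, so a split by itself does not set this pathway apart. In WT tumor against WT gland, 3 of the 28 were higher, where 12.9% of all genes were, and 8 were lower, where 16.6% of all genes were. In KO tumor against KO gland, 4 were higher (12.4% of all genes) and the same 8 were lower (17.9% of all genes). The higher genes were Slc2a1, Pfkp and Aldoc in both genotypes and Pgam1 in the knockout. The lower genes were Hk2, Pfkl, Pfkm, Pfkfb3, Pgam2, Eno3, Pdha1 and Pdhb. The median difference of the 28 genes was 0.17 in the knockout and -0.30 in the wild type, against -0.04 and -0.03 over all genes in those comparisons, and the knockout value turned to -0.04 without the probe sets of kinds that can bind several transcripts, and quantile normalization turned its sign too. The knockout and wild-type comparisons are made of different arrays.

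**Figure D1:**
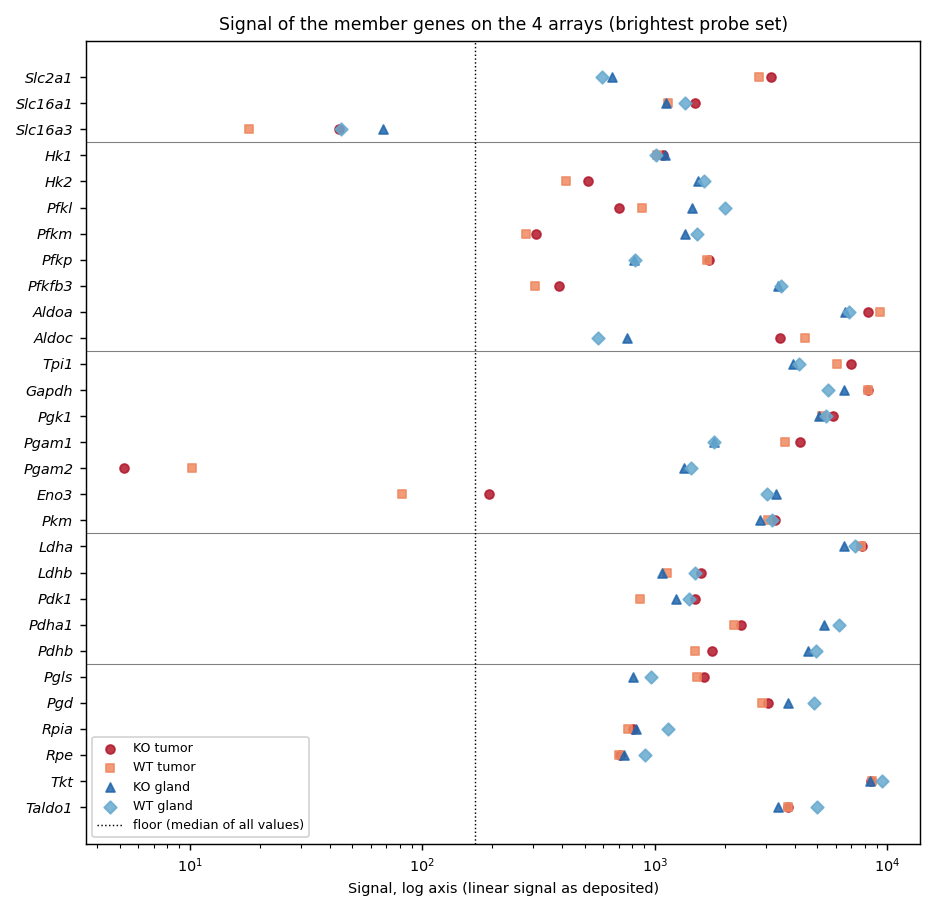
Signal of each of the 29 measured genes on the 4 arrays, on a log axis in the linear units deposited, with genes ordered along the pathway (transport, upper glycolysis, lower glycolysis, pyruvate, pentose phosphate) and the floor of 168.1 dotted. Points are single arrays (1 pool of 5 mice each) with no error bars. Pgam2 and Eno3 lie far to the left in both tumors, Slc2a1 and Aldoc lie to the right in both tumors, and for most other genes the 4 points are close together. Signals of different genes are not comparable.

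Slc2a1, the basal glucose transporter GLUT1, had signals of 3164.5 in the KO tumor and 2818.4 in the WT tumor, against 651.4 in the KO gland and 595.2 in the WT gland. Both tumors were above both glands. Between genotypes the knockout was above the wild type by all 3 probe sets, short of 2-fold. These values ran from 0.12 to 0.46 in the glands and from 0.17 to 0.41 in the tumors. The tumor was 4.70-fold above the gland in the knockout and 4.57-fold in the wild type. All 3 probe sets of the gene gave the same picture, with log2 differences between 2.06 and 2.56 in the knockout and between 2.17 and 2.41 in the wild type. Slc16a1, the lactate carrier MCT1, had signals of 1487.6 in the KO tumor and 1139.6 in the WT tumor, against 1113.2 in the KO gland and 1349.1 in the WT gland, and no array stood apart by 2-fold. Slc16a3, the lactate exporter MCT4, had signals between 18.0 and 67.4, all below the floor.

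The entry step of glycolysis is made by hexokinases. Hk1, the general form, had signals of 1089.7 in the KO tumor and 1019.9 in the WT tumor, against 1107.0 in the KO gland and 1010.0 in the WT gland, and was level across the 4 arrays. Hk2, the insulin-regulated form of muscle and fat, had signals of 517.5 in the KO tumor and 413.0 in the WT tumor, against 1528.4 in the KO gland and 1634.9 in the WT gland. Hk2 was therefore lower in both tumors, by 2.86-fold in the knockout and 3.78-fold in the wild type. The log2 difference of Hk2 minus that of Hk1 was -1.49 in the knockout and -1.93 in the wild type.

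Phosphofructokinase commits sugar to glycolysis, and its 3 genes moved in different directions. Pfkm, the muscle form, had signals of 307.0 in the KO tumor and 279.6 in the WT tumor, against 1345.1 in the KO gland and 1513.7 in the WT gland. Pfkl, the liver form, had signals of 701.2 in the KO tumor and 880.6 in the WT tumor, against 1440.1 in the KO gland and 2001.5 in the WT gland. Pfkp, the platelet form, had signals of 1707.4 in the KO tumor and 1673.5 in the WT tumor, against 817.2 in the KO gland and 820.0 in the WT gland. Pfkm and Pfkl were thus lower in both tumors than in both glands, and Pfkp was higher in both tumors. Pfkm was 4.11-fold lower in the KO tumor than in its gland and 5.02-fold lower in the WT tumor than in its gland. Pfkl was 2.01-fold lower in the knockout and 2.23-fold lower in the wild type, and its other probe set gave -1.14 and -1.30 on the log2 scale. In the knockout, the Pfkl difference of -1.01 shrank to -0.68 when each array was centred on its own median and to -0.89 with a larger offset. Pfkp was 2.05-fold higher in the knockout and 2.01-fold higher in the wild type, just at the threshold. Its call was lost with a larger offset (0.93 in the knockout and 0.90 in the wild type) and when a second, dim probe set was averaged in (0.25 and 0.54). As differences between the genes' differences, Pfkm moved relative to Pfkp by -3.08 in the knockout and -3.33 in the wild type, and relative to Pfkl by -1.03 and -1.17.

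Pfkfb3 makes the sugar bisphosphate that activates phosphofructokinase. It had signals of 385.8 in the KO tumor and 305.7 in the WT tumor, against 3390.5 in the KO gland and 3482.5 in the WT gland. The tumors were below the glands by 8.27-fold in the knockout and 10.5-fold in the wild type. A second probe set lay below the floor on all arrays.

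Aldolase splits the sugar bisphosphate into triose phosphates. Aldoa, the general and muscle form, was bright on all arrays, with signals of 8249.0 in the KO tumor and 9274.7 in the WT tumor, against 6589.6 in the KO gland and 6857.1 in the WT gland. Its 4 probe sets differed between tumor and gland by -0.17 to 0.32 in the knockout and -0.06 to 0.43 in the wild type. Aldoc, the form best known from brain, had signals of 3454.0 in the KO tumor and 4420.4 in the WT tumor, against 762.9 in the KO gland and 567.4 in the WT gland. Both tumors were well above both glands, and the tumor order (KO below WT, -0.35) was the opposite of the gland order (KO above WT, 0.41). A second probe set gave -0.13 between the tumors and was below the floor in both glands. The tumor was 4.41-fold above the gland in the knockout and 7.48-fold in the wild type, and by that second probe set at least 2.08-fold and at least 2.28-fold. The log2 difference of Aldoc minus that of Aldoa was 1.82 in the knockout and 2.47 in the wild type.

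Because members moved both ways, their promoters were read for short motifs. The windows run from 250 bases before to 50 after each annotated start, from RefSeq on GRCm38.p6, and all 33 genes matched, with 50 windows. The core recognised by hypoxia-inducible factors, ACGTG or GCGTG on either strand, overlaps the E-box CACGTG that other factors bind. The core was present in 37 of the 50 windows (74.0%) and in 43.8% of all 32851 windows. It stood before genes that were higher in the tumors and before genes that were lower in them. The core holds the pair CG, and these shares were not matched for base composition. Some of the 50 windows overlap each other, and some belong to genes with no named probe set. Enrichment was not tested. The 3 windows shown here belong to Slc2a1 (chr4:119108495-119108794, plus strand) and Aldoc (first window, chr11:78322823-78323122, plus strand), which were higher, and to Pfkfb3 (first window, chr2:11553880-11554179, minus strand), which was lower. They are printed 5′ to 3′ along the gene with the core in capitals.
Slc2a1: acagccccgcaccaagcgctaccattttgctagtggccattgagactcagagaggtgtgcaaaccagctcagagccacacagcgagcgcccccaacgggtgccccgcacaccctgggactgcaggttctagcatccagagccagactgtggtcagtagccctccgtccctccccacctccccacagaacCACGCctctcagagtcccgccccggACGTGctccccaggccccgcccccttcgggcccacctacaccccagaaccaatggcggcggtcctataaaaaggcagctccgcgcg
Aldoc: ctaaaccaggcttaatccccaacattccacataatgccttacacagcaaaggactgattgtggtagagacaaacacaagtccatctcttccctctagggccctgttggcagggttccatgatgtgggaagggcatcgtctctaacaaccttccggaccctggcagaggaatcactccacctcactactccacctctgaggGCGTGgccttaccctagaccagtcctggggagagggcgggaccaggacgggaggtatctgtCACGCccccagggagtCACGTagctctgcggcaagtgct
Pfkfb3: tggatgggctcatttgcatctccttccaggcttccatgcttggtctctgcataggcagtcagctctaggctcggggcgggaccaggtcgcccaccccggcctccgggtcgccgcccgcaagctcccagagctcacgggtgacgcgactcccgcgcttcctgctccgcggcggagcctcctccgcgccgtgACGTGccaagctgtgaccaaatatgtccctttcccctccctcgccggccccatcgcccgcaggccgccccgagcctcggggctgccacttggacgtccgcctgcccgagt
The Slc2a1 window holds the core with its first base at -61 and -36 from the start, the Aldoc window at -50, 12 and 28, and the Pfkfb3 window at -60. Such a match is a description of the letters and not a bound site.

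**Figure D2:**
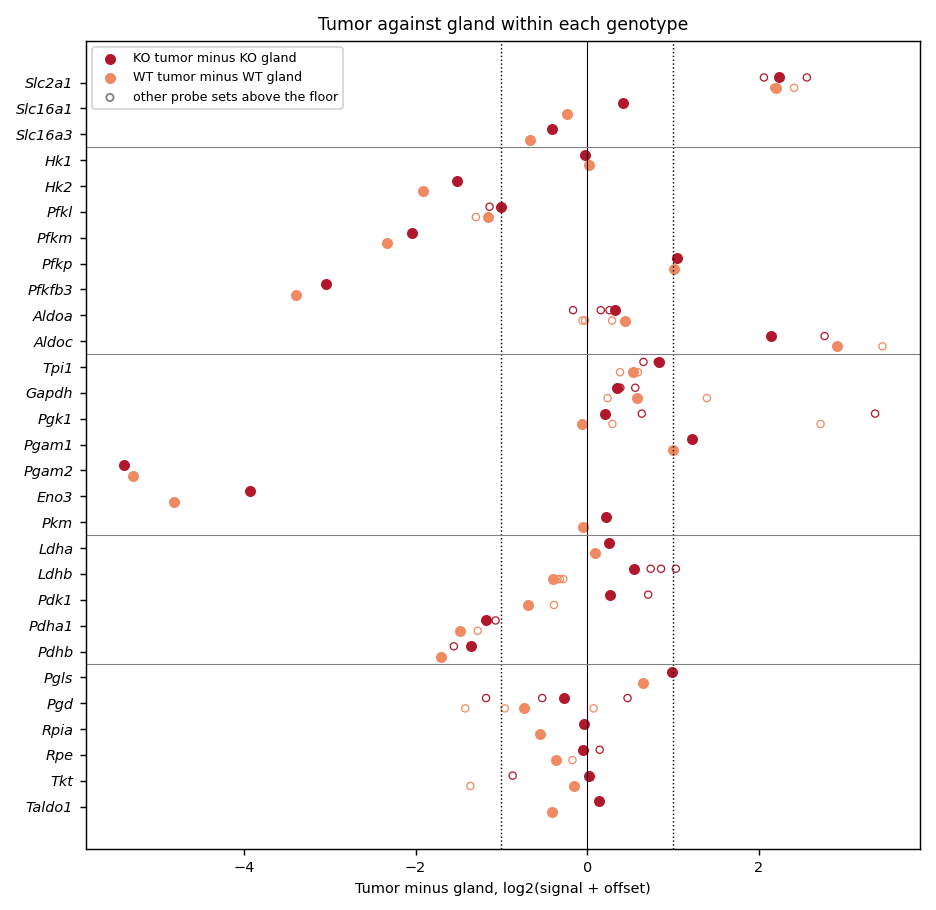
Tumor minus gland for each gene within each genotype, on the scale log2(signal + 27.3), with the brightest probe set filled, other probe sets above the floor open, and the 2-fold threshold dotted. Red points are KO tumor minus KO gland and orange points WT tumor minus WT gland, 1 array each side. Slc2a1 and Aldoc lie to the right, Hk2, Pfkm, Pfkfb3, Pgam2, Eno3, Pdha1 and Pdhb lie to the left in both genotypes, and single probe sets of Pgk1 at 3.35 and 2.72 lie far from the other probe sets of that gene.

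In the lower part of glycolysis, most genes of the general forms stayed within 2-fold between tumor and gland. Tpi1, which interconverts the triose phosphates, had signals of 7007.2 in the KO tumor and 6056.9 in the WT tumor, against 3917.1 in the KO gland and 4192.0 in the WT gland. Its tumor values were above its gland values by 0.83 log2 units in the knockout and 0.53 in the wild type, and its 3 probe sets had one sign. Pkm, the pyruvate kinase gene of most tissues other than liver, had signals of 3298.1 in the KO tumor and 3063.2 in the WT tumor, against 2839.3 in the KO gland and 3182.4 in the WT gland, and was level. The gene had 1 probe set, so its splice forms are not told apart.

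Gapdh, the dehydrogenase of glycolysis, was measured by 3 control probe sets placed along the transcript. The middle one had signals of 8293.5 in the KO tumor and 8298.4 in the WT tumor, against 6526.8 in the KO gland and 5563.2 in the WT gland. The one at the 5′ end had 8809.7 in the KO tumor and 9069.0 in the WT tumor, against 5976.8 in the KO gland and 3438.9 in the WT gland. The one at the 3′ end had 7718.7 in the KO tumor and 6963.3 in the WT tumor, against 5907.2 in the KO gland and 5907.9 in the WT gland. The WT gland therefore stood apart at the 5′ end and was level with the KO gland at the 3′ end. Dividing the 3′ by the 5′ signal of Gapdh gave 0.876 in the KO tumor and 0.768 in the WT tumor, against 0.988 in the KO gland and 1.72 in the WT gland, and the corresponding ratio of beta-actin was also highest in the WT gland, at 2.35. How far this difference in RNA quality enters the other genes' values was not tested.

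Pgk1, which makes the first ATP of the pathway, had 3 probe sets that disagreed. The brightest had signals of 5859.8 in the KO tumor and 5234.9 in the WT tumor, against 5093.4 in the KO gland and 5478.8 in the WT gland, and was level. Another had 6175.1 in the KO tumor and 4191.1 in the WT tumor, against 580.9 in the KO gland and 614.7 in the WT gland, a difference of 3.35 in the knockout and 2.72 in the wild type. The third gave 0.63 in the knockout and 0.29 in the wild type. The size of the Pgk1 difference between tumor and gland thus depends on the probe set.

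The 2 genes of phosphoglycerate mutase moved in opposite directions between gland and tumor. Pgam1, the general mutase, had signals of 4221.1 in the KO tumor and 3614.5 in the WT tumor, against 1792.5 in the KO gland and 1803.2 in the WT gland. Pgam2, the muscle mutase, had signals of 5.2 in the KO tumor and 10.2 in the WT tumor, against 1341.7 in the KO gland and 1437.9 in the WT gland. The general form was higher in both tumors and the muscle form was near the bottom of the scale there. Pgam1 was 2.33-fold higher in the knockout and 1.99-fold higher, just short of the threshold, in the wild type. With the tumor signal set at the floor, Pgam2 was at least 7.01-fold lower in the KO tumor and at least 7.50-fold lower in the WT tumor than in the gland of that genotype. Eno3, the muscle enolase, had signals of 192.7 in the KO tumor and 81.7 in the WT tumor, against 3311.3 in the KO gland and 3045.7 in the WT gland. It was 15.2-fold lower in the KO tumor than in the KO gland, and at least 15.7-fold lower in the WT tumor than in the WT gland. No general enolase was measured to set beside it.

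The 3 muscle forms were lower in both tumors, but their sizes cannot all be ranked. Tumor minus gland was -2.04 in the knockout and -2.33 in the wild type for Pfkm and -3.92 in the knockout for Eno3, measured above the floor on both sides. For Pgam2 in both genotypes and for Eno3 in the wild type the tumor signal was below the floor, and only the bounds given above hold. Of the 19 skeletal muscle markers, 18 in the knockout and all 19 in the wild type were at least 2-fold lower in tumor than in gland. Between genotypes in the gland, Pfkm, Pgam2 and Eno3 differed by -0.17, -0.10 and 0.12, and the muscle markers by -0.19 to 0.15.

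**Figure D3:**
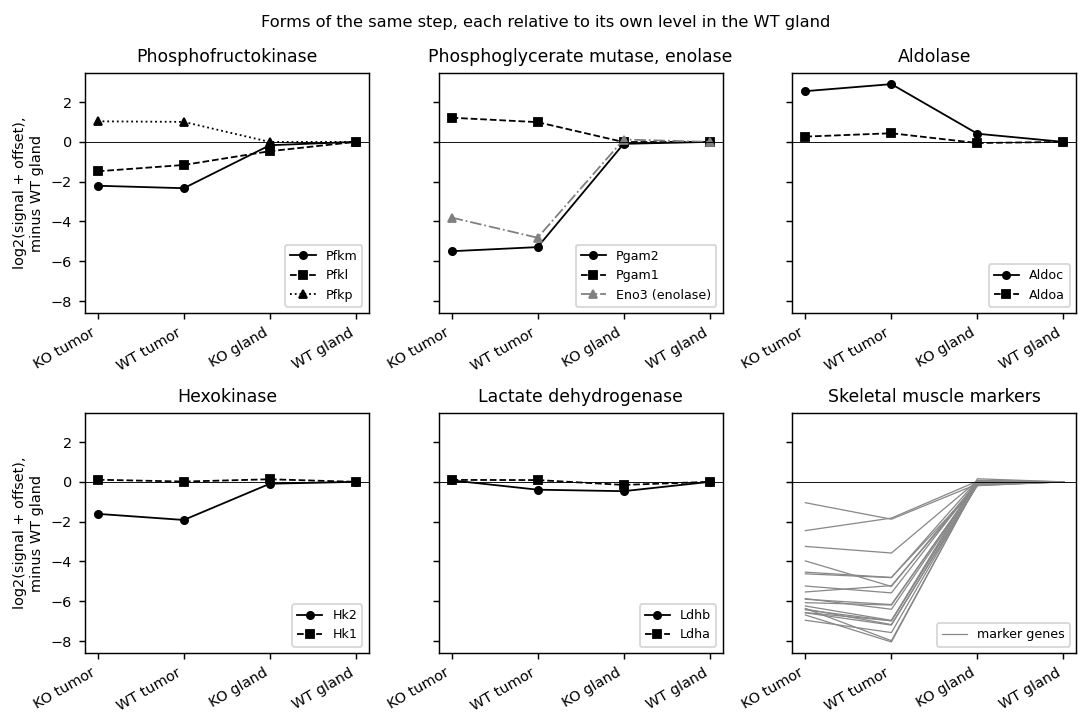
Sister genes of the same step on the 4 arrays, each drawn as log2(signal + 27.3) minus its own value in the WT gland, with the 19 skeletal muscle markers in the last panel. Lines join the 4 arrays of a gene and carry no time order, and each point is 1 array. The muscle forms Pfkm, Pgam2 and Eno3 lie below 0 in both tumors, as do the 19 markers, while Pfkp, Pgam1 and Aldoc lie above 0 there and Hk1, Aldoa and Ldha stay near 0.

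The promoters of the muscle forms were read for motifs of muscle factors, the E-box CAGCTG recognised by myogenic factors and the MEF2 consensus. The E-box was present in 9 of the 50 windows (18.0%) and in 16.3% of all windows, and the MEF2 consensus in 2 of the 50 windows (4.0%) and in 3.19% of all windows. No window of Pfkm held either motif. Besides Pgam2 and Eno3, the E-box stood before Aldoa, Gpi1, Pdk1, Pfkfb1, Pkm, Rpe and Taldo1. The MEF2 consensus stood before Pgam2 and Pfkfb1. The Pgam2 window (chr11:5803747-5804046, minus strand) holds both motifs, the E-box from -125 and the MEF2 consensus from -80. The Eno3 window (chr11:70656926-70657225, plus strand) holds the E-box from 39, and it also holds the hypoxia core from -130, left in lower case. Both are shown because these muscle forms were bright in the glands and near or below the floor in the tumors, and they are printed 5′ to 3′ along the gene with the muscle motifs in capitals.
Pgam2: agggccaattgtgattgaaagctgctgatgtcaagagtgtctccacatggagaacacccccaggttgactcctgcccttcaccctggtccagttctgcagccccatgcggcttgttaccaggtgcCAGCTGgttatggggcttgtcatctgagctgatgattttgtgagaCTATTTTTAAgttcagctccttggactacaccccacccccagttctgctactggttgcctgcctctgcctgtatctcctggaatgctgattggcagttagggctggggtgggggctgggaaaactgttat
Eno3: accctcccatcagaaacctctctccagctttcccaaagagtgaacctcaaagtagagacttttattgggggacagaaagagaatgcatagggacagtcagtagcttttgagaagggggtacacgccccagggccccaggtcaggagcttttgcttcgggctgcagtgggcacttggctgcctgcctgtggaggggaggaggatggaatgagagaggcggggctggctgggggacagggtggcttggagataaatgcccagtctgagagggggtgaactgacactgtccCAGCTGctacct

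Pyruvate leaves glycolysis towards lactate or towards mitochondria. Ldha, the lactate dehydrogenase form of muscle and of glycolytic cells, had signals of 7762.7 in the KO tumor and 7719.3 in the WT tumor, against 6517.0 in the KO gland and 7256.9 in the WT gland, and was level, with differences of 0.25 in the knockout and 0.09 in the wild type whose sign turned under quantile normalization. Pdha1, the alpha subunit of pyruvate dehydrogenase, had signals of 2338.7 in the KO tumor and 2195.7 in the WT tumor, against 5347.5 in the KO gland and 6188.2 in the WT gland. Pdhb, its beta subunit, had 1765.7 in the KO tumor and 1496.0 in the WT tumor, against 4547.9 in the KO gland and 4953.3 in the WT gland. Both subunits were lower in both tumors, while lactate dehydrogenase A was not. Pdha1 was 2.27-fold lower in the knockout and 2.80-fold lower in the wild type, and Pdhb 2.55-fold and 3.27-fold lower. A second probe set of Pdha1 gave log2 differences of -1.07 in the knockout and -1.28 in the wild type. A second probe set of Pdhb was below the floor in both tumors and was at least 1.65-fold lower in the knockout and at least 1.82-fold lower in the wild type. In the knockout the Pdha1 difference shrank to -0.86 when arrays were centred on their medians.

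By its brightest probe set, no member of the pentose phosphate pathway was past 2-fold between tumor and gland in either genotype. Pgls, the lactonase of the oxidative branch, had signals of 1626.3 in the KO tumor and 1524.8 in the WT tumor, against 805.9 in the KO gland and 966.7 in the WT gland, and came closest, at 1.98-fold in the knockout and 1.56-fold in the wild type. In the knockout its log2 difference of 0.99 passed the threshold with an offset of 1 (1.01), with median centring (1.32) and with quantile normalization (1.00). The probe sets of Pgd, the second dehydrogenase of that branch, ranged from -1.18 to 0.47 in the knockout and from -1.42 to 0.07 in the wild type. Those of Tkt, the transketolase that links the pathway back to glycolysis, gave -0.87 and 0.02 in the knockout and -1.36 and -0.15 in the wild type. The probe sets thus had mixed signs for Pgd in both genotypes and for Tkt in the knockout, while in the wild type both probe sets of Tkt were negative. Across the 14 genes with several probe sets above the floor, 10 in the knockout and 11 in the wild type had a single sign, and in 2 and 4 of the 14 the probe sets differed from each other by at least 2-fold.

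In the comparison of KO gland with WT gland, none of the 28 genes was past 2-fold in either direction, where 1.11% of all genes were higher and 0.254% lower. The median difference was -0.14, against 0.01 over all genes, and was smaller in size than the spread of 0.17, which gauges single genes and not medians. The values ran from -0.55 to 0.41, with 23 negative and 5 positive, where 52.2% of all genes were positive. By more than the spread, 11 of the 28 were lower (22.9% of all genes) and 2 higher (30.1% of all genes). Slc2a1, Hk1, Aldoc, Gapdh and Eno3 were the positive ones, and when each array was centred on its own median Slc2a1, Hk1 and Eno3 turned negative. That centring moved the median of all genes to -0.21 and the median of the 28 to -0.36, so the distance between them stayed at about the size of the spread. Quantile normalization gave -0.06 for the 28 and -0.05 for all genes, which leaves almost no distance. It also turned Pfkfb3, Aldoa, Tpi1, Pgk1, Pgam1 and Pdhb positive, with values from 0.00 to 0.08. Averaging over the probe sets of a gene turned Pfkp, Pfkfb3 and Rpe positive. The count of signs thus depends on the processing.

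All 6 measured genes of the pentose phosphate pathway were negative in the KO gland, with a median of -0.33 and a range of -0.55 to -0.18. Taldo1, the transaldolase of the sugar-rearranging branch, had signals of 3394.4 in the KO gland and 4988.8 in the WT gland, against which the tumors lay at 3724.9 (KO) and 3756.1 (WT). The WT gland thus stood above the other 3 arrays. Rpia, which makes ribose phosphate, was also brightest in the WT gland, with 830.8 in the KO gland and 1135.4 in the WT gland, beside 805.4 and 768.8 in the KO and WT tumor. Pgd gave 3731.5 in the KO gland and 4843.2 in the WT gland by its brightest probe set, although 1 of its 4 probe sets was level, at 0.02. Rpe, the epimerase, gave 737.7 in the KO gland and 905.5 in the WT gland, and a second probe set had the other sign, at 0.10. Tkt gave 8416.1 in the KO gland and 9538.4 in the WT gland, and Pgls 805.9 and 966.7. Other measures also differed between these 2 gland arrays. Markers of B and T cells summed to 8184 in the KO gland and 3410 in the WT gland, with 7 of 10 higher and a median of 1.27. Markers of macrophages and neutrophils summed to 14890 and 10852 with 4 of 11 higher, those of dividing cells to 5377 and 3797 with a median of 0.77, and those of brown adipocytes to 3600 and 6382 with a median of -0.81. The 3′ to 5′ quotient of Gapdh given above was 0.988 in the KO gland and 1.72 in the WT gland. The part of these in the values of the 6 genes was not tested. In the tumors these 6 genes differed between genotypes by -0.01 to 0.10 by their brightest probe sets. A second probe set gave 0.41 for Rpe and 0.19 for Tkt, and the 4 probe sets of Pgd ranged from -0.02 to 0.26.

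By their brightest probe sets, the 5 genes of pyruvate fate were all negative in the KO gland, from -0.47 to -0.12, and all positive in the KO tumor, from 0.01 to 0.77, each against the wild type. Quantile normalization turned Pdhb in the gland to 0.00 and median centring turned Ldha in the tumor to -0.01. A second probe set of Pdha1 had the other sign in the gland, at 0.11. Ldhb, the lactate dehydrogenase form of heart and oxidative cells, had signals of 1575.5 in the KO tumor and 1130.9 in the WT tumor, and of 1072.8 in the KO gland and 1495.5 in the WT gland. The knockout was above the wild type in the tumors and below it in the glands. The difference was 0.47 in the tumors and -0.47 in the glands, and all 4 probe sets agreed in sign, with 0.47 to 0.79 in the tumors and -0.57 to -0.47 in the glands. Ldha differed by 0.01 in the tumors and -0.15 in the glands, so that Ldhb minus Ldha was 0.46 in the tumors and -0.31 in the glands.

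Pdk1, the kinase that switches off pyruvate dehydrogenase, had signals of 1488.7 in the KO tumor and 862.0 in the WT tumor, and of 1232.9 in the KO gland and 1408.6 in the WT gland. The WT tumor was the low array. The KO tumor was 1.70-fold above the WT tumor, a log2 difference of 0.77, and a second probe set gave 0.95, both short of 2-fold. Both were above the spread of 0.12, as were 35.1% of all genes in this comparison. In the glands the 2 probe sets gave -0.19 and -0.15.

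In the comparison of KO tumor with WT tumor, 1 of the 28 genes was past 2-fold, Eno3, which was higher (2.12% of all genes were higher), and none was lower (1.94% of all genes were). The Eno3 difference was 1.01, a ratio of 2.02, and with the WT tumor set at the floor the KO tumor was at least 1.13-fold higher. The call was lost with a larger offset (0.53), with median centring (0.99) and with quantile normalization (0.90). Of the 19 skeletal muscle markers, 17 were below the floor on both tumor arrays. The other 2 were also brighter in the KO tumor, Acta1 with 427.5 in the KO tumor and 159.6, just below the floor, in the WT tumor, and Mb, the oxygen store of muscle, with 823.2 in the KO tumor and 451.5 in the WT tumor. Over all 19 markers, 17 were positive and 2 negative. Tnni2, below the floor on both arrays, went the other way, with 124.1 in the KO tumor and 161.3 in the WT tumor. The part of muscle RNA in the Eno3 value was not tested. Over the 28 genes the median was 0.09, against 0.01 over all genes, with 21 positive and 7 negative, where 51.8% of all genes were positive. By more than the spread, 11 of the 28 were higher (35.1% of all genes) and 4 lower (31.8% of all genes). Aldoc at -0.35 and Pfkl at -0.32 were the lowest, and Pdk1, Ldhb and Slc16a1 (0.38) followed Eno3 at the top. In the same tumors 12 of 16 markers of dividing cells were higher in the knockout, with a median of 1.16, and 8 of 11 markers of keratinising epithelium were lower, with a median of -3.05, and their part in these values was not tested.

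**Figure D4:**
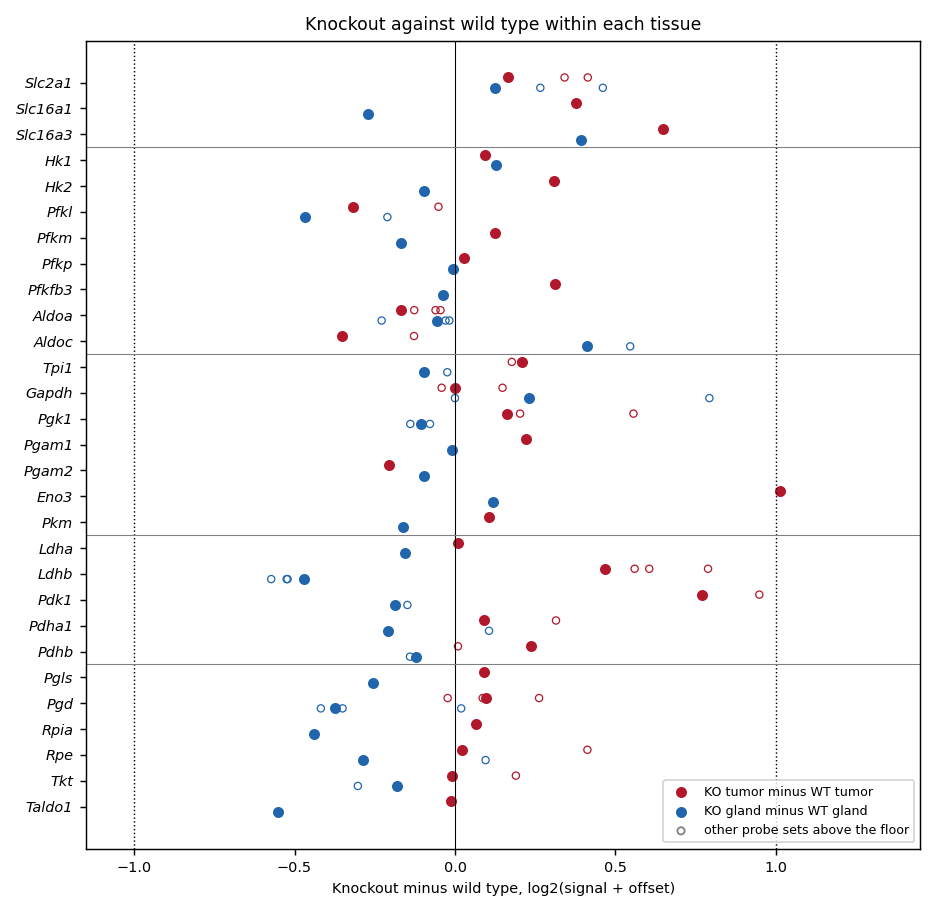
Knockout minus wild type for each gene within tumor (red) and within gland (blue), on the scale log2(signal + 27.3), with other probe sets above the floor open and the 2-fold threshold dotted. Each value is a difference of 2 arrays with no replicate. Nearly all points lie within 2-fold, Eno3 in tumor sits on the upper threshold at 1.01, the probe sets of Ldhb lie to the right in tumor and to the left in gland, and the 6 pentose phosphate genes lie to the left in gland by their brightest probe set.

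For 28 genes the difference between the tumor against gland values of the 2 genotypes (knockout minus wild type) ran from -0.76 to 0.96. The median was 0.30, against 0.00 over all genes. None of the 28 reached 4-fold, against 31 genes higher and 56 lower by 4-fold among all 8283. Pdk1 (0.96), Ldhb (0.94), Eno3 (0.89) and Aldoc (-0.76) had the largest sizes.

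Other genes of the pathway were taken from a list of 54, of which 40 had a probe set and 28 were compared. None was past 2-fold between genotypes in gland (1.11% of all genes were higher and 0.254% lower) or tumor (2.12% and 1.94%). Between tumor and gland, 3 were higher and 13 lower in the knockout, and 2 higher and 13 lower in the wild type, beside the same shares of all genes as above (12.4% higher and 17.9% lower in the knockout, 12.9% and 16.6% in the wild type). Among the lowest was Pck1, which makes phosphoenolpyruvate for new glucose and glycerol, with signals of 44.7 in the KO tumor and 36.0 in the WT tumor, against 5898.2 in the KO gland and 5959.4 in the WT gland. Pcx (-3.70 in the knockout and -3.72 in the wild type), the pyruvate carboxylase, and Gpd1 (-3.60 and -3.81), which makes glycerol phosphate for fat, were also among the lowest. All 11 white adipocyte markers were lower too, as given above. The pyruvate dehydrogenase kinases split, with Pdk4 at 178.9 in the KO tumor and 141.2 in the WT tumor, against 1867.8 in the KO gland and 3237.9 in the WT gland, and Pdk3 at 477.9 in the KO tumor and 438.4 in the WT tumor, against 188.6 in the KO gland and 146.7 in the WT gland. Pdk2 was also lower in tumor than in gland (-2.80 in the knockout and -3.06 in the wild type), and Pdk1 stayed within 2-fold (0.27 and -0.69). Emb, a partner protein of lactate carriers, was higher in both tumors (1.86 and 1.67).

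Of 18 glycogen genes 13 were compared, and 8 in the knockout and 10 in the wild type were lower in tumor than in gland, none higher, where 17.9% and 16.6% of all genes were lower. Pygm, the muscle glycogen phosphorylase, had signals of 3.8 in the KO tumor and 12.6 in the WT tumor, against 1489.0 in the KO gland and 1576.8 in the WT gland, so both tumors were near the bottom of the scale, as for Pgam2. Pygl, the liver form, had 243.4 in the KO tumor and 88.2 in the WT tumor, against 2665.0 in the KO gland and 3237.9 in the WT gland, and was the 1 glycogen gene past 2-fold between the tumors, with its WT tumor signal below the floor. Of all genes, 2.12% were higher in the KO tumor than in the WT tumor. In KO gland against WT gland none of the 13 was past 2-fold (1.11% of all genes were higher and 0.254% lower). All 13 were negative there, from -0.48 to -0.02 with a median of -0.14, where 52.2% of all genes were positive.

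Of 20 regulators of glycolysis 14 were compared. Between tumor and gland, 2 were higher and 2 lower in each genotype. Of all genes, 12.4% were higher and 17.9% lower in the knockout, and 12.9% and 16.6% in the wild type. Egln3, a prolyl hydroxylase that marks hypoxia-inducible factors for destruction and is itself induced by them, had signals of 2555.1 in the KO tumor and 1171.1 in the WT tumor, against 193.2 in the KO gland and 321.5 in the WT gland. It was the only one of the 14 past 2-fold between the tumors, at 1.11, and none was between the glands. Of all genes, 2.12% were higher and 1.94% lower in the KO tumor, and 1.11% and 0.254% in the KO gland. Mlxipl, the glucose-sensing factor of liver and fat, was at 17.8 in the KO tumor and 7.7 in the WT tumor, against 1723.0 in the KO gland and 1799.0 in the WT gland. Of 20 genes of the hypoxia response outside glycolysis 18 were compared, 1 of which, the glucose transporter Slc2a3, is also on the list of other pathway genes. In KO tumor against WT tumor, Car9 (1.19) and Ero1a (1.10) were higher and Angptl4 (-1.86) was lower, with a median of 0.37 and 13 of the 18 positive. Over all genes the median was 0.01 and 51.8% were positive, beside the shares past 2-fold just given. In KO gland against WT gland none of the 18 was past 2-fold, and the median was -0.07, against 0.01 over all genes. Between tumor and gland, 5 of the 18 were higher and 4 lower in the knockout, with a median of 0.04. In the wild type 2 were higher and 4 lower, with a median of -0.12. The medians over all genes were -0.04 and -0.03, and the shares past 2-fold are those given above for tumor against gland.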

How the data were processed

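Total RNA of mammary tumors and glands of both genotypes, pooled from 5 mice per group, was labelled with biotin and measured on 4 Affymetrix arrays, per the labels' protocols. The deposited values are linear intensity values, 1 signal for each of 22690 probe sets. The software behind these signals was not given in the sources used here. Without the lowest and highest 2% of its values, every array averaged 500.1 or 500.2, so a common scaling had been applied before deposit.

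Signals were used as deposited, as log2(signal + 27.3). Gene symbols came from the platform annotation, updated by gene identifier (20364 probe sets) to the RefSeq table of GRCm38.p6. Of the probe sets, 20393 had 1 symbol, 691 had several and were not used, and the annotation did not list 1606, which stay unnamed. For each of 12394 genes the brightest probe set was taken, and 8283 genes reached the overall median (log2 7.61) on at least 1 array. Probe sets of several genes of this pathway may share sequence with related transcripts. Members and lists were chosen with earlier results of these data known. Every member is named. Of the other lists, at most the 3 largest differences each way past 2-fold per comparison could be named, and of each marker list the 3 brightest compared genes. Pdk2 was named in addition, beside the other kinases of its family. Groups followed the labels. With 1 array per group no test was made, and the share of all genes past 2-fold is given as background. Alternatives covered the offset, the scaling, the choice of probe set and the floor. The procedure was tested on simulated data. Python 3.11.15, NumPy 2.4.6, pandas 2.3.3 and matplotlib 3.10.9 were used.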

Additional observations from a re-analysis of the deposited data

Results flagged for a closer look

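Aldoc and Ldhb were picked out because their genotype differences had opposite signs in the 2 tissues, each larger than 2 spreads between probe sets of a gene. For Aldoc the genotype difference in tumor minus that in gland was -0.76 on the log2 scale, and for Ldhb it was 0.94. For Aldoc the tumor part shrank to -0.13 without probe sets that can bind several transcripts, of the same gene or of other genes. The gland part shrank to 0.18 with median centring. Both values were under 2 spreads. Every probe set of Ldhb is of a kind that can bind several transcripts, so no value without such probe sets could be computed for it. With 1 array per group these differences between tissues were not tested.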

How the results depend on the processing

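Under 8 alternatives, no gene of the pathway past 2-fold changed sign. In WT tumor against WT gland all 8 lower calls and 2 of the 3 higher calls (not Pfkp) kept their side wherever a value could be computed, and in KO tumor against KO gland 6 of 8 lower (not Pfkl and Pdha1) and 3 of 4 higher (not Pfkp). Calls were gained for Pgam1 and Tkt in the wild type and for Tpi1, Pgk1 and Pgls in the knockout, each under at least 1 alternative. The 1 gene of the pathway higher in the KO tumor than in the WT tumor became 0 with the offset at the median of all values, with median centring and with quantile normalization. Median centring moved the median of the members to -0.36 for KO gland against WT gland and to 0.49 for KO tumor against KO gland, while the median of all genes moved to -0.21 and 0.31, and to 0.10 for WT tumor against WT gland. Among all genes, 92 were higher and 21 lower in the KO gland than in the WT gland, against 181 and 40 with an offset of 1, 20 and 16 with the offset at the median and 44 and 39 with median centring. KO tumor against KO gland, with 1023 higher and 1479 lower, gave 1696 and 1035 with median centring. Without probe sets of kinds that can bind several transcripts, of the same gene or of other genes, 19 of the 28 members could be compared. No paired analysis was possible because each group has 1 array. The signal over background limits Pgam2 and Eno3 in the tumors and Slc16a3 on all arrays.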
